A study of Mus musculus with 6 samples.

Results

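Genes of DNA replication and cell division were followed in neutrophils from the dura mater, the tough outermost meningeal layer. The set held 36 genes, given by name: 12 that license or carry out DNA synthesis and 24 others, which are cyclins, Cdk1 and genes of mitosis. Among the 24, Ccne2 acts at S-phase entry and Ccna2 in S phase and G2. Every gene of the set had a row among the 21955 genes counted, and all 36 were among the 11903 genes that had enough counts to be tested. Poly-A RNA of wild-type mice was sequenced after the mice had been exposed to a social threat, in 3 libraries labelled male and 3 labelled female. All 6 libraries share the exposure, and no unexposed library was analysed here. The labels give no age or strain, and do not say whether the libraries came from separate mice, from pooled mice or how the neutrophils were isolated. P-values therefore rest on variation among these libraries, whose source may be technical.

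Total counts ran from 17098026 to 20778410 per library. Levels are given as CPM, counts scaled to library size, after TMM normalization, and differences as log2 of female-labelled over male-labelled, so that a negative value is lower in female-labelled libraries. The summed level of 4 Y-linked genes was 307 to 318 CPM in male-labelled libraries and 312 to 328 CPM in female-labelled ones, and 0 of the 4 passed the test. The Y-linked genes thus go against the label female, and each direction that follows is a direction between libraries so labelled. Neutrophil markers were abundant in every library, with a summed level of 53130 CPM or more over the 9 markers that had a row. The most abundant were S100a9, a calcium-binding protein of the neutrophil cytosol, in female-labelled libraries and the granule protein gene Ngp in male-labelled ones.

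Cell division runs through a fixed order of steps. Origins of replication are licensed by loading of the MCM helicase, DNA is then copied with nucleotides supplied by dedicated enzymes, and cyclin-dependent kinases bring the cell into mitosis, where the spindle checkpoint and the anaphase-promoting complex time the separation of chromosomes. Neutrophil precursors in the bone marrow divide, and this programme is shut down as they mature, so mature neutrophils are held to be post-mitotic. Many replication genes are switched on by E2F factors before S phase, while many mitotic genes are switched on later through the CHR element, bound by the MuvB core of the DREAM and MYB-MuvB complexes, often beside CCAAT boxes bound by NF-Y.

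The promoter sequences of the set were searched for these elements. RefSeq promoter windows (mouse build GRCm38.p6, 250 bases before to 50 after each start) were given for 30 of the 36 genes, in 32 windows. Of these, 4 are shown, because they belong to the genes whose levels differed between the groups, Kif23 and Tk1, an S-phase gene with E2F words, Mcm6, and the mitotic kinase gene with every kind of word, Cdk1. Capitals mark the words searched for on both strands: the CHR words TTTGAA and TTCGAA, the CCAAT box, and the E2F words TTTGGCGC, TTTGCCGC, TTTCGCGC and TTTCCCGC, which may overlap one another. The windows lie on the minus strand at chr9:61946750-61947049 for Kif23, chr11:117825965-117826264 for Tk1, chr10:69352863-69353162 for Cdk1 and chr1:128359656-128359955 for Mcm6, each printed 5′ to 3′ along the gene.
Kif23: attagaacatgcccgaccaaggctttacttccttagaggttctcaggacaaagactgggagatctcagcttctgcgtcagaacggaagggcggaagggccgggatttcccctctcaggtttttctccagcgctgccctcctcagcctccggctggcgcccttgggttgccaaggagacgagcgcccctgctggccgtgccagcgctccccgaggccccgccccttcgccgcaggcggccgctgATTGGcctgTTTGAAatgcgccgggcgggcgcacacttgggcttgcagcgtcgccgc
Tk1: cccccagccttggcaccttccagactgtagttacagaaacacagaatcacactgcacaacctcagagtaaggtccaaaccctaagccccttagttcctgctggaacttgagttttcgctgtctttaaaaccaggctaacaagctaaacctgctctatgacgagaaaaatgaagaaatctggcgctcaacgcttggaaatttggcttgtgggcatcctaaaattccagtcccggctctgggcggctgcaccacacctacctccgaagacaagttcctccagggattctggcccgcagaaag
Cdk1: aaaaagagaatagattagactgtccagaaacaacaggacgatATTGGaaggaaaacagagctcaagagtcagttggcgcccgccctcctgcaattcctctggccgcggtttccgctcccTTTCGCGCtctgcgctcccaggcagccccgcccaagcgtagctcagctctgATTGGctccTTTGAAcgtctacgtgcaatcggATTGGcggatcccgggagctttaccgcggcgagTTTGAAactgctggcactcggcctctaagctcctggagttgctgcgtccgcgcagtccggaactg
Mcm6: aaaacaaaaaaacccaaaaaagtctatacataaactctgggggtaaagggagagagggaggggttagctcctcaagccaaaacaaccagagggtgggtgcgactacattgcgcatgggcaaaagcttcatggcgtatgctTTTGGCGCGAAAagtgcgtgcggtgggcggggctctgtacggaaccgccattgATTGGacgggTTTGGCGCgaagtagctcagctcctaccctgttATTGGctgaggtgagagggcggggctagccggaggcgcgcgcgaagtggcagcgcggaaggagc

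The Kif23 window held a CCAAT box and a CHR word at its start site, and the Tk1 window held none of the words. A CHR word was present in 16 of the 20 windows of mitotic genes (80.0%) and in 2 of the 12 windows of licensing and DNA synthesis genes (16.7%), against 19.2% of all 32851 windows. The 20 windows came from 19 genes, since both overlapping windows of Prc1, each with a CHR word, were counted. E2F words showed the reverse order, with 5 of 12 windows of the replication genes (41.7%) and 1 of 20 of the mitotic genes (5.0%), against 2.26% of all windows. CCAAT boxes were found in 27 of the 32 windows (84.4%), against 37.4% of all windows. A match is a run of letters and not a shown binding site, and a window without one says only that these letters are not in it; the start site of the Tk1 window lies 78 bases from that of the gene's principal transcript in the GENCODE annotation. Both Mcm7 windows, at 539 and 1156 bases, lie beyond 200 bases from it, and without them 1 of 10 replication windows held a CHR word and 4 an E2F word.

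The proliferation genes were well expressed in all 6 libraries and their levels were close in the 2 groups. Mean levels ran from 44.1 to 999 CPM with a median of 131 CPM, against a median of 26.8 CPM over all genes tested. Per kilobase of transcript the median was 47.9 CPM, against 8.59 CPM per kilobase over all genes tested that had a length, and 35 of the 36 genes were above that level; only Cenpf, a long kinetochore gene, was under it. Each gene had at least 669 counts in every library. Together the 36 genes took 0.643%, 0.673% and 0.656% of all counts in male-labelled libraries and 0.689%, 0.697% and 0.637% in female-labelled ones. Their summed level after normalization was 6647 ± 28.9 CPM in male-labelled libraries and 6670 ± 101 CPM in female-labelled ones (SD, n = 3), and the ranges overlapped. In bulk RNA, a change in the number of dividing cells and a change in RNA per cell cannot be told apart.

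**Figure D1:**
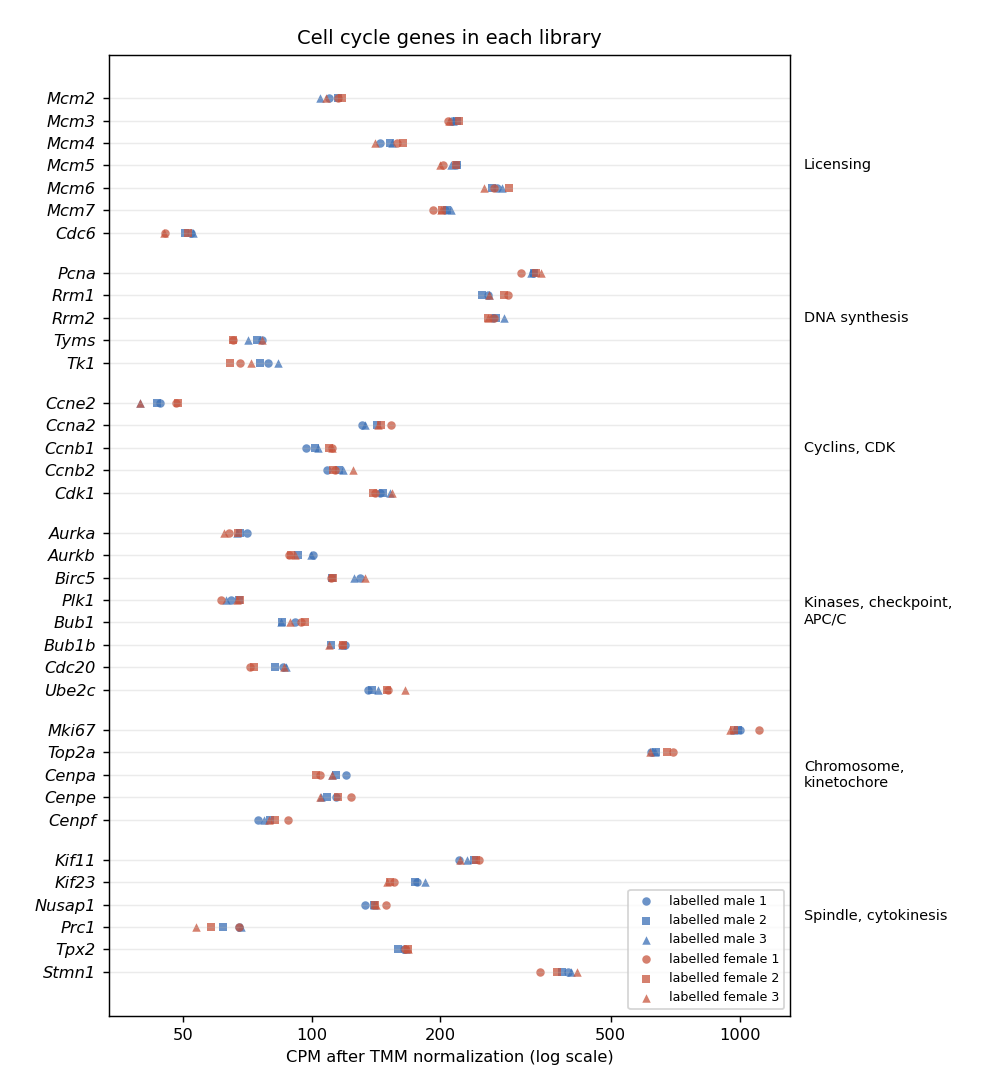
Level of each of the 36 genes in each of the 6 libraries, in CPM on a log axis, with genes grouped by role; blue points are libraries labelled male and red points libraries labelled female. The points of the 2 groups lie close together for every gene, from Ccne2 at about 44.1 CPM to Mki67 at about 999 CPM.

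Between the groups, 2 of the 36 genes were lower in female-labelled libraries and 0 were higher, by edgeR's quasi-likelihood test at a Benjamini-Hochberg adjusted p under 0.05. These were Kif23, a motor of the cleavage furrow, and Tk1, a thymidine salvage kinase. The share called, 5.56%, compares with 13.9% of all genes tested in either direction, of which 7.29% were higher and 6.62% lower. DESeq2 and limma-voom called these same 2 genes and no other of the set. The count of lower genes was 1 without male-labelled library 1 or 2 or female-labelled library 1 or 2, 0 without male-labelled library 3 and 6 without female-labelled library 3. At an unadjusted p under 0.05 there were 4 genes, with Ube2c and Ccnb1 on the higher side, and the share of all genes under that level was not taken. The log2 differences were balanced, with 18 above 0 and 18 under 0, a range from -0.22 to 0.16 and a median of -0.002, against 0.0016 over all genes tested. The median size of the difference, sign aside, was 0.068 in the set and 0.14 over all genes tested, where the median SE was 0.062 and 0.096. For the 34 genes that did not pass, the 95% interval of the female-labelled to male-labelled ratio lay between 0.809 and 1.22 in every case. The 6 values fell apart by group, without overlap, for 9 of the 36 genes (25%, 5 higher and 4 lower), against 30.9% of all genes tested.

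**Figure D2:**
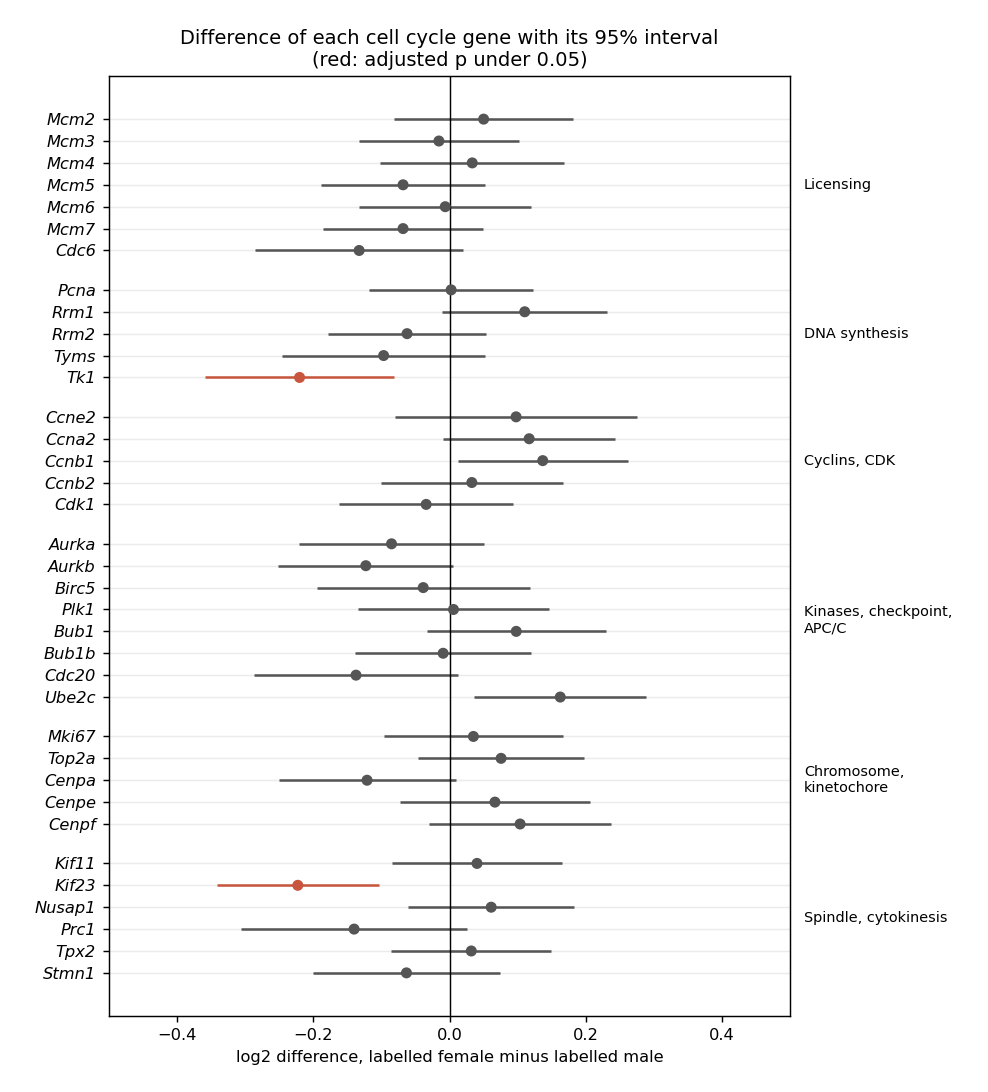
Log2 difference of each of the 36 genes, libraries labelled female minus those labelled male, with its 95% interval, grouped by role. The differences lie between -0.22 and 0.16, and red marks Kif23 and Tk1, the 2 genes that passed the test.

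Licensing genes load and form the replicative helicase, and their sum was 1214 to 1228 CPM in male-labelled libraries and 1156 to 1262 CPM in female-labelled ones. None of the 7 passed edgeR's test, and none had an unadjusted p under 0.05. The helicase subunit genes Mcm2, Mcm3, Mcm4, Mcm5, Mcm6 and Mcm7 had log2 differences between -0.07 and 0.05, and Mcm6 was the most abundant of them, at 271, 264 and 279 CPM against 267, 290 and 253 CPM. Its values crossed between the groups, with the highest and the lowest of the 6 both in libraries labelled female. Cdc6, the ATPase that loads the helicase onto origins, had 52.4, 50.7 and 52.8 CPM in male-labelled libraries and 45.4, 51.4 and 45.3 CPM in female-labelled ones (log2 -0.13, SE 0.073, adjusted p = 0.254 by edgeR's quasi-likelihood test). Female-labelled libraries 1 and 3 were low and library 2 lay among the male-labelled values.

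DNA synthesis was represented by the sliding clamp and by enzymes that make nucleotides. Tk1 (ENSMUSG00000025574), which phosphorylates salvaged thymidine, had 79.1, 75.9 and 83.5 CPM in male-labelled libraries and 68.1, 64.5 and 72.1 CPM in female-labelled ones. All 3 female-labelled values were under all male-labelled values. The level was 1.17-fold lower (log2 -0.22, SE 0.067, adjusted p = 0.0313 by edgeR's quasi-likelihood test). It kept its direction but missed the threshold when any library other than female-labelled 3 was left out, with adjusted p of 0.0939, 0.052 and 0.173 without male-labelled 1, 2 and 3 and of 0.0704 and 0.166 without female-labelled 1 and 2.

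Tyms, which makes thymidylate from deoxyuridylate, had 76.7, 74.6 and 70.9 CPM against 65.6, 65.4 and 76.7 CPM in female-labelled libraries, where library 3 stood level with the highest male-labelled value. Rrm1, the large subunit of ribonucleotide reductase, differed in the other direction, with 258, 250 and 260 CPM against 287, 281 and 260 CPM. Its female-labelled libraries 1 and 2 were high, and library 3 stood just above the highest male-labelled value. The small subunit gene Rrm2 had log2 -0.06. Pcna, the sliding clamp of the replicative polymerases, had 328, 331 and 326 CPM against 309, 334 and 344 CPM, with a log2 difference of 0.00, and its female-labelled values lay on both sides of the male-labelled ones.

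Among cyclins, Ccnb1, a partner of Cdk1 at entry into mitosis, had 97.2, 102 and 104 CPM in male-labelled libraries and 112, 110 and 111 CPM in female-labelled ones. The female-labelled values were all above the male-labelled ones and lay close together, but the difference missed the threshold (log2 0.14, SE 0.060, adjusted p = 0.14 by edgeR's quasi-likelihood test). Ccna2, the cyclin of S phase and G2, had no overlap either, at 131.3 to 142.5 CPM against 142.7 to 153.5 CPM, with an adjusted p of 0.22 by the same edgeR test. Ccnb2, Ccne2, the cyclin of S-phase entry, and the kinase gene Cdk1 had differences of 0.03, 0.10 and -0.03 with overlapping values. None of the 5 genes passed.

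The mitotic kinases, the spindle checkpoint and the anaphase-promoting complex gave 8 genes, of which 0 passed edgeR's test and 1 had an unadjusted p under 0.05. Ube2c, the ubiquitin-conjugating enzyme of the anaphase-promoting complex, had 135, 139 and 143 CPM in male-labelled libraries and 151, 150 and 165 CPM in female-labelled ones. All 3 female-labelled values were higher, and library 3 was the highest of all (log2 0.16, SE 0.061, adjusted p = 0.0812 by edgeR's quasi-likelihood test). Cdc20, the activator of that complex, had 85.6, 82.1 and 87.0 CPM against 72.0, 73.2 and 86.3 CPM, with female-labelled libraries 1 and 2 low and library 3 among the male-labelled values.

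Aurkb, the kinase of the chromosomal passenger complex, had 92.8 to 101 CPM in male-labelled libraries and 88.6 to 91.5 CPM in female-labelled ones, with no overlap (adjusted p = 0.205 by edgeR's quasi-likelihood test). Its partner Birc5 and the kinase genes Aurka and Plk1 had log2 differences of -0.04, -0.09 and 0.01. The checkpoint kinase gene Bub1 and its relative Bub1b had 0.10 and -0.01. Values of these 5 genes overlapped between the groups.

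Genes of chromosome structure and the kinetochore included the most abundant of the set by CPM. Mki67, whose product coats mitotic chromosomes and is the usual marker of cycling cells, had 1002, 989 and 971 CPM in male-labelled libraries and 1112, 971 and 951 CPM in female-labelled ones. Female-labelled library 1 stood above the male-labelled range and library 3 under it, and the difference was small (log2 0.035, SE 0.063, adjusted p = 0.767 by edgeR's quasi-likelihood test). Per kilobase of its long transcript Mki67 had 99.3 CPM, below Stmn1 at 365, Pcna at 217, Ube2c at 152, Birc5 at 128, Top2a at 124 and Rrm2 at 122 CPM per kilobase.

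Top2a, the topoisomerase that untangles sister chromatids, had 620, 637 and 635 CPM against 700, 676 and 618 CPM, so that female-labelled libraries 1 and 2 were above and library 3 under all male-labelled values. Cenpa, the centromeric histone H3 variant, had 121, 114 and 112 CPM against 105, 102 and 112 CPM, with female-labelled libraries 1 and 2 low and library 3 just inside the male-labelled range. The kinetochore motor gene Cenpe and its companion Cenpf had log2 differences of 0.07 and 0.10. None of the 5 genes of this group passed edgeR's test, and none had an unadjusted p under 0.05.

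Spindle and cytokinesis genes held the lowest adjusted p of the set. Kif23 (ENSMUSG00000032254), the kinesin of the centralspindlin complex that organizes the cleavage furrow, had 176, 175 and 184 CPM in male-labelled libraries and 156, 152 and 150 CPM in female-labelled ones. The groups did not overlap, and all 3 female-labelled values lay within a narrow band. The level was 1.17-fold lower (log2 -0.22, SE 0.057, adjusted p = 0.0118 by edgeR's quasi-likelihood test), and it missed the threshold without male-labelled library 3 (adjusted p = 0.0902).

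Other genes of that step did not follow Kif23 past the threshold. Prc1, which bundles microtubules of the spindle midzone, had log2 -0.14 (adjusted p = 0.267 by edgeR's quasi-likelihood test) with overlapping values. Kif11, the motor that pushes spindle poles apart, and the spindle assembly factors Tpx2 and Nusap1 had 0.04, 0.03 and 0.06. Stmn1, which destabilizes microtubules, had 396, 384 and 405 CPM against 342, 374 and 418 CPM. Its female-labelled libraries ran from the lowest to the highest of all 6 (log2 -0.06, SE 0.066).

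The balance of replication genes to the rest of the set was also compared. The summed level of the 12 replication genes divided by that of the other 24 genes was 0.503, 0.507 and 0.508 in male-labelled libraries and 0.477, 0.513 and 0.493 in female-labelled ones. Most of the 24 are mitotic, but they include Ccne2 and Ccna2. The ranges overlapped, with the lowest and the highest ratio both in libraries labelled female.

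Female-labelled library 3 stood apart from the other 2 of its group, over all genes and in this set. Its chi-square per degree of freedom against them was 13.4 and 16.5, while the other pairs within a group gave 4.1 to 8.09. It was the lowest of its group for 18 of the 36 genes and the highest for 11, and its position went with transcript length: the median transcript was 3409 bases for the 18 and 1518 bases for the 11. Among the 18 were Mcm2, Mcm4, Mcm5, Mcm6, Cdc6, Mki67, Top2a, Cenpe, Cenpf, Kif11 and Prc1, and among the 11 were Stmn1, Ube2c, Birc5, Cdc20, Tk1, Tyms and Pcna. Not every gene followed its length: Cdk1, at 4375 bases, was among the 11, and Aurka, at 1905 bases, was among the 18. Across the 36 genes the Spearman correlation between transcript length and the deviation from the other 2 libraries was -0.65 in female-labelled library 3 and 0.64 in female-labelled library 1. Over 11869 genes it was -0.37 and 0.36, so the trend was not particular to the set; genes of a library share its RNA and are not independent points. Each library was set against the other 2 of its group, so the deviations within a group are tied. The value for female-labelled library 1 is therefore not a separate observation from that for library 3.

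**Figure D3:**
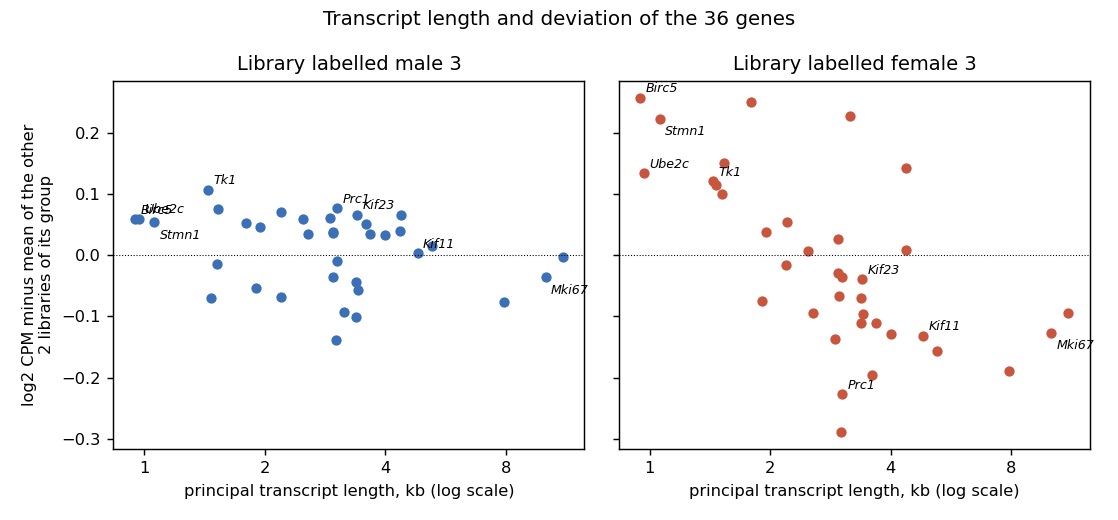
Deviation of each of the 36 genes from the mean of the other 2 libraries of its group (log2 CPM) against the length of its principal transcript in kilobases, on a log axis, for male-labelled library 3 (left) and female-labelled library 3 (right). In female-labelled library 3 short transcripts such as Birc5 and Stmn1 lie above 0 and long ones such as Mki67 under 0, with a Spearman correlation of -0.65, against -0.31 in male-labelled library 3.

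Without female-labelled library 3, 6 of the 36 genes were lower and 2 higher in female-labelled libraries. Beside Kif23 (adjusted p = 0.00282) and Tk1 (0.00256) by edgeR's quasi-likelihood test, the lower ones were Cdc20 (log2 -0.22, adjusted p = 0.00628), Cenpa (-0.16, 0.0397), Stmn1 (-0.14, 0.037) and Tyms (-0.18, 0.0417). The higher ones were Rrm1 (log2 0.15, adjusted p = 0.0183 by edgeR) and Top2a (0.13, 0.0424). With all 6 libraries these 6 genes had adjusted p of 0.225 (Cdc20), 0.217 (Cenpa), 0.581 (Stmn1), 0.41 (Tyms), 0.229 (Rrm1) and 0.434 (Top2a) by edgeR. Over all genes tested the same step moved the calls from 868 higher and 788 lower to 1439 and 1269, the latter among 12078 genes tested. Calls thus rose over all genes as well, and the added calls were not shown to be particular to the set. With each library's trend on transcript length removed, an alternative chosen after seeing the data, Kif23 (adjusted p = 0.00266) and Tk1 (0.021) stayed lower by edgeR's test and Ube2c (log2 0.19, adjusted p = 0.0149) was higher. Between the groups, the Spearman correlation of transcript length with the log2 difference was 0.35 over the 36 genes and 0.09 over 11869 genes. The 18 shorter genes of the set had a median log2 difference of -0.05 and the 18 longer ones 0.03. The part of transcript length in the differences was not tested beyond that alternative.

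A further 5 lists covered the rest of the machinery: other replication genes, G1 cyclins with their kinases and Cdc25 phosphatases, CDK inhibitors, the E2F, Rb and DREAM regulators, and other mitosis genes. Of their 129 genes tested, 5 were higher and 11 lower in female-labelled libraries, or 12.4% called by the same test, near the 13.9% of all genes tested. Their median log2 difference was -0.04. The count was 8 to 13 when any library but female-labelled 3 was left out, and 38 without female-labelled 3. Calls over all genes tested rose in that last setting too, as given above. Counts without female-labelled 3, here and below, are therefore to be set against 1439 higher and 1269 lower of 12078 genes, not against 13.9%.

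The CDK inhibitors had the highest share called of the 5 lists, 3 of 5 genes tested (60.0%), against 13.9% of all genes tested. Cdkn1a, the inhibitor induced by p53, had 104, 99.1 and 106 CPM in male-labelled libraries and 72.3, 75.2 and 82.6 CPM in female-labelled ones (log2 -0.42, SE 0.066, adjusted p = 0.000144 by edgeR's quasi-likelihood test). All female-labelled values were lower. Cdkn1b, the inhibitor of Cdk2 complexes in resting cells, had 178, 186 and 183 CPM against 223, 217 and 221 CPM (log2 0.27, SE 0.056, adjusted p = 0.00222), and was higher in every library labelled female. Cdkn2d, an INK4 inhibitor of Cdk4 and Cdk6, had 112, 110 and 104 CPM against 132, 136 and 159 CPM (log2 0.39, SE 0.070, adjusted p = 0.000566), also with no overlap. These 3 calls held in all 16 alternatives run. The INK4 gene Cdkn2c missed the threshold at log2 0.16 (adjusted p = 0.102 by edgeR), and Cdkn1c stood near or under 1 CPM. Of the 10 G1 cyclin, kinase and phosphatase genes, 2 were higher (20%, against 7.29% of all genes): Ccnd3, a D-type cyclin, at log2 0.19 (adjusted p = 0.0479 by edgeR) and its kinase gene Cdk4 at 0.19 (0.031). Both calls were lost without male-labelled 1, 2 or 3 or female-labelled 2 (adjusted p from 0.0561 to 0.178), Ccnd3 also without female-labelled 3 (0.0743) and under upper-quartile factors or a filter of 10 CPM, and Cdk4 also without female-labelled 1 (0.0504).

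Of 41 other replication genes tested, 5 were lower and 0 higher, as also by DESeq2 and limma-voom. A 10 CPM filter gave 8 lower, no filter 5 lower and 2 higher, and removal of the length trend 7 lower and 1 higher. The summed level of the list was 2729 to 2748 CPM in male-labelled libraries and 2518 to 2604 CPM in female-labelled ones. Of the 41 differences 29 were under 0 and 12 above, and 43.9% of the genes fell apart by group, against 30.9% of all genes tested. The share called was 12.2% in either direction, against 13.9% of all genes tested, of which 6.62% were lower and 7.29% higher. At an unadjusted p under 0.05 there were 16, and the share of all genes under that level was not taken. Pold1, the catalytic subunit of the lagging-strand polymerase, had 89.4, 84.7 and 82.9 CPM in male-labelled libraries and 62.6, 65.4 and 66.7 CPM in female-labelled ones (log2 -0.40, SE 0.064, adjusted p = 0.000178 by edgeR's quasi-likelihood test). Cdt1, which loads the helicase with Cdc6, had 68.4, 69.0 and 65.0 CPM against 55.3, 56.8 and 53.4 CPM (log2 -0.29, SE 0.066, adjusted p = 0.00498). In both genes all female-labelled values were under all male-labelled ones, and both calls held in all 16 alternatives. The initiation factor gene Mcm10 (log2 -0.25), the clamp loader gene Rfc2 (-0.20) and the ligase gene Lig1 (-0.20) had adjusted p of 0.024, 0.0433 and 0.0321 by edgeR. Their calls were lost when single libraries were left out: Mcm10 without male-labelled 2 or 3 or female-labelled 1, Rfc2 without any but female-labelled 3, and Lig1 without male-labelled 1, 2 or 3 or female-labelled 2 (adjusted p from 0.0618 to 0.203). Without female-labelled 3, 9 genes of this list were lower and 1 higher, while 2 were lower without male-labelled 2 or 3, and 3 without male-labelled 1 or female-labelled 2. Fen1, the flap endonuclease, had 0.113 to 0.847 CPM, from 2 to 16 counts, and was not tested. Whether so low a value came from the cells or from how reads were counted was not tested.

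**Figure D4:**
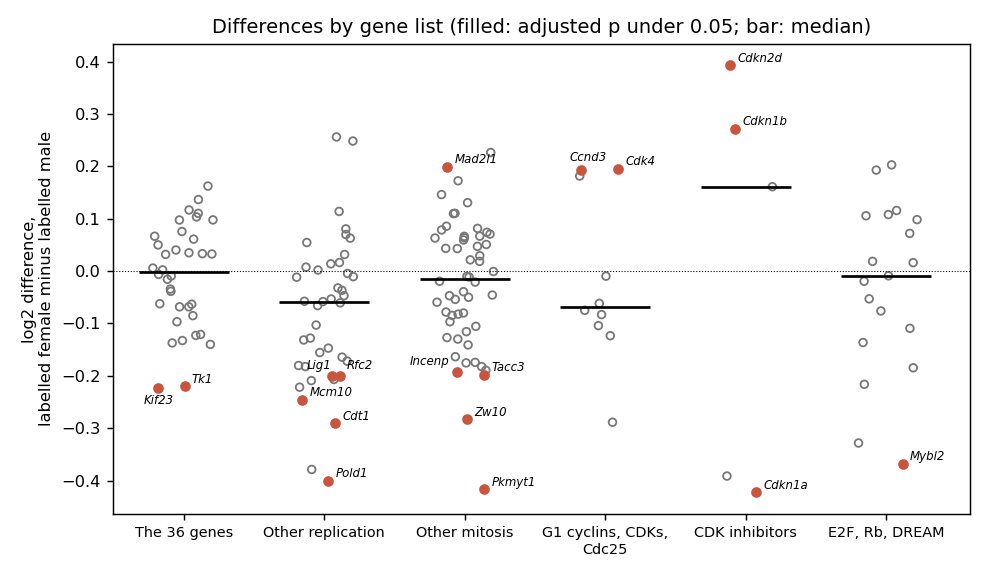
Log2 difference of each gene tested, libraries labelled female minus those labelled male, by list; filled points passed edgeR's test and bars are list medians. The 36 genes centre on 0 with Kif23 and Tk1 as the only filled points, while Cdkn1a at -0.42 and Cdkn2d at 0.39 mark the ends of the CDK inhibitor list.

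Among 19 genes of the E2F, Rb and DREAM group, 1 passed edgeR's test (5.26%, against 13.9% of all genes). Mybl2, the MYB protein that joins MuvB at mitotic promoters, had 71.0, 59.7 and 63.4 CPM in male-labelled libraries and 51.2, 49.8 and 49.5 CPM in female-labelled ones, with no overlap (log2 -0.37, SE 0.073, adjusted p = 0.0017 by edgeR's quasi-likelihood test). Its partner at those promoters, Foxm1, had log2 -0.18 (adjusted p = 0.0736 by edgeR), and E2f1 had -0.22 (0.0696). The count of lower genes in this list was 2 without female-labelled 1, and also under upper-quartile factors, no filter or a replicate block. It was 3 under the 10 CPM filter or with the length trend removed, and 4 without female-labelled 3.

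Of 54 other mitosis genes, 4 were lower and 1 higher (9.26% called, against 13.9% of all genes tested). Pkmyt1, the membrane kinase that holds Cdk1 inactive, had 48.2, 51.4 and 48.7 CPM against 33.6, 36.1 and 41.4 CPM (log2 -0.42, SE 0.082, adjusted p = 0.00151 by edgeR's quasi-likelihood test), and Zw10, a kinetochore protein, had 58.9, 58.4 and 55.9 CPM against 47.6, 49.2 and 45.6 CPM (log2 -0.28, SE 0.069, adjusted p = 0.00853). Neither overlapped between the groups, and both calls held in all 16 alternatives. Incenp, the scaffold of the complex that holds Aurkb and Birc5, and the spindle gene Tacc3 were lower at -0.19 and -0.20 (adjusted p = 0.0382 and 0.0304 by edgeR), and the checkpoint gene Mad2l1 was higher at 0.20 (0.0314). These 3 calls were lost without any library but female-labelled 3 (adjusted p from 0.0863 to 0.2). Without female-labelled 3 the list held 10 lower and 7 higher genes, and without any other single library 2 lower and 0 higher.

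**Figure D5:**
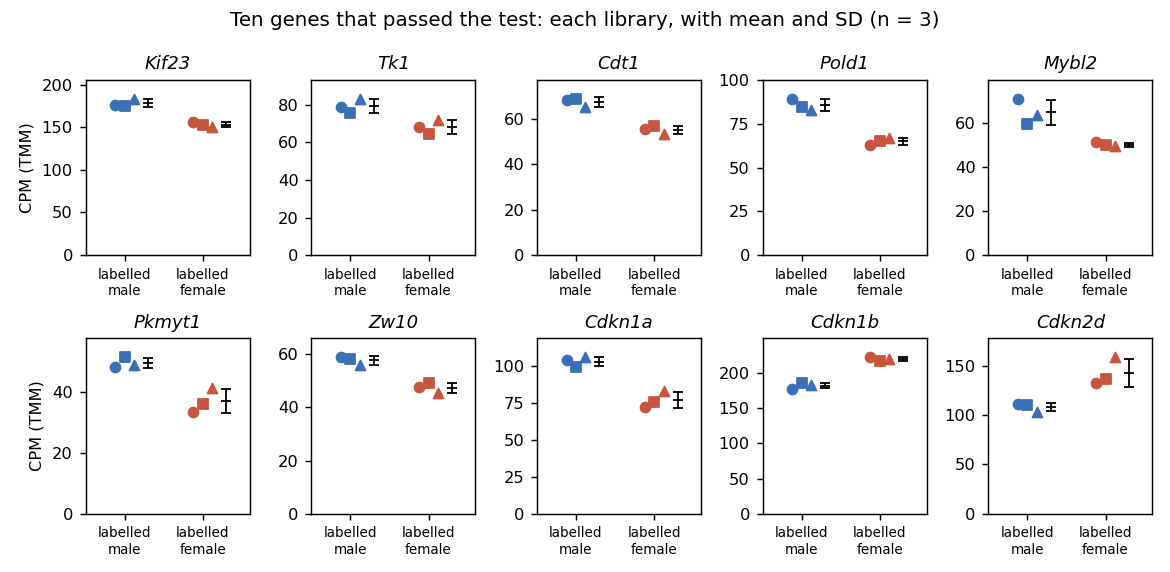
CPM in each library, with mean and SD (n = 3), for Kif23 and Tk1 and for the 8 genes of the wider lists whose calls held in all 16 alternatives; blue is labelled male, red labelled female, and circle, square and triangle are libraries 1, 2 and 3. Cdkn1b and Cdkn2d are higher in all 3 libraries labelled female, and the other 8 genes are lower in all 3.

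Markers of other cells, some of which divide, were read beside these values, with counts to be set against 7.29% of all genes higher and 6.62% lower. B cell markers were lower for 8 of 10 (80.0%) in female-labelled libraries, with a sum of 199 to 267 CPM against 324 to 390 CPM, and Spib was the most abundant. Dendritic cell markers were lower for 5 of 10 (50%, 213 to 218 against 307 to 324 CPM, Siglech most abundant), and 3 of 7 erythroid markers tested were higher (42.9%, 35.6 to 66.1 against 19.5 to 25.6 CPM, Hbb-bs most abundant). Markers of B cell precursors, which divide in marrow and dura, did not pass for any of 9 tested, with 0 at an unadjusted p under 0.05 (94.96 to 109 against 96.9 to 115 CPM, Sox4 most abundant). Most of these markers were low, and a filter of 10 CPM left 3. Of the 9 differences 7 were under 0, and intervals were wide, with a ratio of 0.342 to 1.095 for Igll1. A difference in these cells could therefore have been missed. Among T and NK cell markers 1 of 9 was lower (11.1%, 137 to 164 against 146 to 167 CPM, Nkg7 most abundant), and among fibroblast and endothelial markers 1 of 6 tested was higher (16.7%), although their sum was 61.4 to 71.7 against 72.9 to 78.1 CPM and overlapped between the groups without Pecam1.

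The most abundant gene set the sum of several other lists. Of 10 macrophage and monocyte markers 2 were higher and 1 lower; the monocyte receptor gene Ccr2 carried a sum of 1257 to 1391 against 1052 to 1116 CPM, and the other 9 summed to 446 to 475 against 470 to 483 CPM. Mast cell and basophil markers gave 1 higher, Hdc, and 1 lower, Prss34, of 7 tested, with 898 to 950 against 807 to 848 CPM in all and 466 to 505 against 500 to 562 CPM without Hdc. The mast cell proteases Mcpt4 and Tpsb2 were at 0 counts in all 6 libraries. Of 9 neutrophil markers 6 were higher (66.7%, 59110 to 76260 against 53130 to 58640 CPM), and the sum without S100a9 overlapped between the groups. The 6 differed from 1.19-fold (S100a8) to 2.38-fold (Retnlg), each without overlap, while Camp, Ngp and Ltf did not pass. Markers of early granulopoiesis, the stage at which neutrophil precursors divide, gave 1 higher and 1 lower of 10. Their sum, 8539 to 9821 against 9239 to 9342 CPM, overlapped between the groups, while without Chil3 it was 4605 to 5035 against 5068 to 5137 CPM. The most abundant of the other 9 was Mpo, the lower gene, at 1491 to 1738 against 1828 to 1900 CPM. The higher gene was Cd34, at 37.5 to 44.7 against 29.8 to 34.0 CPM. Of the 10 log2 differences 4 were above 0 and 6 under 0, so the list did not move as one.

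Without female-labelled library 3, early granulopoiesis markers gave 2 higher and 3 lower, erythroid markers 5 higher, and macrophage and monocyte markers 4 higher and 1 lower. More of all genes tested were called in that setting too, so these counts are not to be set against the shares above. Mitochondrially encoded genes took 13.1%, 10.7% and 12.2% of counts in male-labelled libraries and 7.37%, 6.42% and 8.49% in female-labelled ones. Leaving those genes out left Kif23 and Tk1 as the only genes of the set that passed; the part of the other cell types in the differences was not tested.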

How the data were processed

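RNA of 6 libraries, 3 labelled male and 3 labelled female, was analysed. Trizol-extracted RNA was selected for poly-A, fragmented and copied with random primers, per the labels' protocols, which name no strand-marking step. The tools listed are cutadapt 1.15 and HISAT2 2.0.5 and the build GRCm39, per the submitters' processing notes. The authors deposited raw counts per gene, not normalized. With the counting tool and strand setting not given in the sources used here, reads of genes that overlap or lie antisense may be shared.

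Symbols came from GENCODE M21, which named 21847 of 21955 rows; Lin54, Cxcr2, Trac and Ahsp were not analysed here. Transcript lengths were those of the APPRIS principal transcript. The main test was the quasi-likelihood test of edgeR 4.0.16 (R 4.3.3) on group alone, after TMM scaling and filterByExpr (minimum count 10), with Benjamini-Hochberg adjustment over the 11903 genes left, threshold 0.05. SE came from the change and its F statistic, and intervals cover 95%. On simulated counts of this comparison, among 11806 genes, 77% of 100 genes changed 1.5-fold and 95% of 100 changed 2-fold were called, and 0.0172% of 11606 unchanged ones. Smaller changes were not simulated.

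Same-group libraries differed beyond counting noise, so each was counted as 1 replicate. Alternatives were DESeq2 1.42.0 and its size factors, upper-quartile factors, limma-voom (limma 3.58.1), no filter, 10 CPM in 3 libraries, a threshold of 0.01, no mitochondrially encoded genes, a replicate block, each library left out and, added later, removal of the length trend. The 36 genes, the wider lists and the markers were chosen with earlier results of these data known. Genes named are the 36, the wider-list genes that passed, the most abundant marker of each list and markers at 0; genes named beside these were chosen after their values were seen.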

Additional observations from a re-analysis of the deposited data

How the results depend on the processing

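Kif23 and Tk1 stayed the only genes of the 36 called, both lower, under DESeq2, DESeq2 size factors, upper-quartile factors, limma-voom, a 10 CPM filter, no filter and removal of mitochondrially encoded genes. At an adjusted p under 0.01 the count was 0 lower, with 410 higher and 410 lower over all genes and 8 in the wider lists. Leaving out each library gave 0 to 6 lower and 0 to 2 higher of the 36, 439 to 1439 higher and 467 to 1269 lower over all genes, and 8 to 38 in the wider lists. The low ends came without male-labelled library 3 and the high ends without female-labelled library 3. Removing the length trend gave 1 higher of the 36. The replicate block gave 2 lower and 0 higher of the 36 and 20 calls in the wider lists. Correlations of same-numbered libraries, taken on deviations from group means, were -0.0386, 0.0646 and 0.0634. They gave no sign that the numbers pair the libraries, but cannot show that the libraries were not handled in pairs.

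Some genes that did not pass changed sign near 0. Without a filter Mcm6 was at 0.0029. Pcna and Plk1 were at -0.0114 and -0.0077 under upper-quartile factors, -0.0121 and -0.0085 under the 10 CPM filter, and -0.0049 and -0.0013 without mitochondrially encoded genes. Leaving out single libraries gave ranges of -0.0424 to 0.0025 for Mcm3, -0.0085 to 0.0969 for Mcm4, -0.0577 to 0.0394 for Mcm6, -0.0307 to 0.0475 for Pcna, -0.0187 to 0.0623 for Ccnb2, -0.1288 to 0.0089 for Birc5, -0.0212 to 0.0526 for Plk1, -0.0405 to 0.0275 for Bub1b, -0.0373 to 0.0781 for Mki67 and -0.1399 to 0.005 for Stmn1. The cause was not tested. With 3 libraries a group, each gene's own interval limits what could be seen; over the 34 genes that did not pass, the lowest bound of the ratio was 0.809 and the highest 1.22.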
